A study of Mus musculus with 2 samples.

Results

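Gene deserts were taken as the stretches of chromosomes 1 to 19 that lie outside every protein-coding gene record and more than 100 kb from the nearest protein-coding transcription start site, and their H3K4me1 peaks are described here. A peak was a member when its centre met this rule on the GRCm38 (mm10) genome, so that position alone, and no signal value, chose the members. Of 222570 peaks on these chromosomes in the authors' replicated list, 17392 qualified, or 7.81%. The list held 226060 peaks over all chromosomes. Chromatin immunoprecipitation and sequencing (ChIP-seq) with an antibody against H3K4me1 had been run on E14TG2a.4, a mouse embryonic stem cell line. The line is male, of strain 129/Ola, and its stage is given as embryonic with an age of 3.5 day. The only group held 2 biological replicates with no treatment named, and both came from 1 donor and 1 cell line, so their spread is that of repeat samples of the same line. No other cell type, condition or input library was analysed here, and no test between groups was possible.

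Monomethylation of lysine 4 on histone H3 is laid down at enhancers, both active and primed, and on the flanks of active promoters. Gene deserts are long stretches without protein-coding genes. Some of them border developmental regulators and hold enhancers that act over long distances, while others hold few known regulatory elements. Embryonic stem cells have enhancers bound by factors such as OCT4, SOX2, ESRRB and KLF4, whose short recognition words can be looked for in the sequence under a peak.

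No mm10 genome was at hand, so sequence under the peaks was read from the mm9 (NCBIM37) genome with the authors' mm9 list of the series and GENCODE vM1 genes. In that list 12042 peaks met the same desert rule. The sequences below show what the centres of such peaks look like in deserts that are among the 10 densest on mm10 and keep the same flanking gene pair on mm9, which 5 of the 10 do. Each is the central 300 bases, on the plus strand, of the peak with the highest signal among those of its desert that hold at least 1 of 6 searched words. Capitals mark the words. Their positions are chr13:44217250-44217549 for Cd83-Jarid2, chr4:131040350-131040649 for Matn1-Ptpru, chr5:119251750-119252049 for Med13l-Tbx3 and chr13:28811650-28811949 for Prl5a1-Sox4.
Cd83-Jarid2: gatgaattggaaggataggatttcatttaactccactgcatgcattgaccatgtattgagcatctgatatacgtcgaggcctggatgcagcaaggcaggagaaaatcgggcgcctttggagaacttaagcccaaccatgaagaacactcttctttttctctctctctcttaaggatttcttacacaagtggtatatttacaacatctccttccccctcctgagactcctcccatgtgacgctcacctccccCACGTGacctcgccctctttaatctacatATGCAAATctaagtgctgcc
Matn1-Ptpru: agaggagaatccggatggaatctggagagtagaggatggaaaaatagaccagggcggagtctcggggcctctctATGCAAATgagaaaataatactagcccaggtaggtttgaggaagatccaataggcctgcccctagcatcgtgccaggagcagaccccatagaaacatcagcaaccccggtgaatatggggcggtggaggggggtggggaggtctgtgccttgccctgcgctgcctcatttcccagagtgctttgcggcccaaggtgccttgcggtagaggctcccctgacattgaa
Med13l-Tbx3: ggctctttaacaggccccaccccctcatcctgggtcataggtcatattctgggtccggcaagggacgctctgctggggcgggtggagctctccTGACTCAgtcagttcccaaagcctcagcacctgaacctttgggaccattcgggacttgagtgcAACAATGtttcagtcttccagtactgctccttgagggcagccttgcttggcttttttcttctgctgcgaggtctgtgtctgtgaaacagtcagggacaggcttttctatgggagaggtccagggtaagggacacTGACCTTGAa
Prl5a1-Sox4: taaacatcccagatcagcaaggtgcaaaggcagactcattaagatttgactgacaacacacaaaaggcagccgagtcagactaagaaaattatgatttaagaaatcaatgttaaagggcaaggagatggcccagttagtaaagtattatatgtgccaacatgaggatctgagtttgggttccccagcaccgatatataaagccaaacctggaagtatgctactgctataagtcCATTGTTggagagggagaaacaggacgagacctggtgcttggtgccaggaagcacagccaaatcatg

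The words were ATTTGCAT (the octamer bound by OCT4 and other POU factors), CATTGTT (SOX factors), TCAAGGTCA (ESRRB), GGGTGTGG (KLF factors), TGACTCA (AP-1) and CACGTG (the E-box), searched exactly and on both strands. No 2 of these words hold one another. The Cd83-Jarid2 peak held an E-box followed by an octamer. The Matn1-Ptpru peak, the strongest of 58 in its desert, held an octamer. The Med13l-Tbx3 peak held an AP-1 word, a SOX word and an ESRRB word. By signal, the Cd83-Jarid2, Med13l-Tbx3 and Prl5a1-Sox4 peaks ranked 6, 16 and 2 in their deserts, since stronger peaks there held no word. In these 4 deserts, 17 of 67, 13 of 58, 7 of 67 and 10 of 45 peaks, in the order printed, held any of the words in their central 300 bases. In Nphp4-Ajap1, which is not printed, 17 of 68 did. The share of all mm9 desert peaks that held any of the words was not computed, so these counts are not a result about these deserts.

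Over all 12042 mm9 desert peaks, the central 300 bases were richer in G and C than desert sequence without a peak. Their median GC content was 47.0%, against 39.0% in 117444 desert windows of the same length that were taken every 6 kb and held no peak. The replicates' own mm9 lists gave 47.0% and 46.3%. The ratio of observed to expected CpG had a median of 0.189 in desert peaks and 0.122 in windows without a peak. It was 0.211 in intergenic peaks 5 to 100 kb from a start site and 0.245 within 5 kb of one.

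The words differed in how their frequency in desert peaks compared with the windows. The KLF word stood in 5.01% of desert peaks and 1.18% of windows without a peak, with 4.28% in replicate 1 and 4.66% in replicate 2. The ESRRB word stood in 1.49% and 0.45%, and the replicates gave 1.43% and 1.42%. The E-box stood in 4.42% and 2.13%, and the AP-1 word in 6.23% and 4.17%. The octamer was about as frequent in both, at 3.57% and 3.31%. The SOX word was less frequent in the peaks, at 6.24% against 6.94%. Windows without a peak are poorer in G and C, and the part of base composition in these shares was not tested. Among peaks alone, the octamer was found in 3.57% of desert peaks, 2.25% of intergenic, 2.05% of intragenic and 1.63% of promoter-proximal peaks. The SOX word was likewise more frequent in desert peaks, at 6.24% against 4.80% of intergenic peaks. The KLF word, at 5.52%, the ESRRB word, at 1.62%, and the E-box, at 4.74%, were more frequent in intergenic peaks, and the AP-1 word was about equal at 6.25%. For the octamer, the replicates' own desert peaks, at 3.41% and 3.72%, lay above the series list values of the other 3 classes. A word is a run of letters, and its presence does not show that a factor was bound.

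Desert peaks were sparse on average. Deserts, taken from the first to the last peak or gene of each chromosome, made up 743.6 Mb in 1858 stretches, or 31.0% of the autosomal sequence considered. The replicated list placed 23.4 peaks per Mb there. The replicates' own lists held 24200 and 25326 desert peaks, or 32.5 and 34.1 per Mb, a mean of 33.3 ± 1.07 (SD, n = 2). Measured the same way, intergenic sequence 5 to 100 kb from a start site held 127 ± 0.444 peaks per Mb, intragenic sequence 170 ± 9.13 and promoter-proximal sequence within 5 kb 347 ± 3.02 (SD, n = 2 each). The density of the intergenic class was 3.90 times that of deserts in replicate 1 and 3.74 times in replicate 2, so the gap between classes was far larger than the spread between replicates. Peaks of the 2 replicate lists covered 1.77% and 1.82% of desert sequence, against 8.170% and 8.003% of the intergenic class.

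Repeated sequence, where reads cannot be placed, differed little between these 2 classes. Of 32-base words sampled every 2 kb on mm9, 80.3% in deserts and 79.3% in the intergenic class occurred once in the genome. The share was higher in intragenic sequence, at 89.5%, and in promoter-proximal sequence, at 87.4%. Per Mb of such unique sequence, the mm9 lists gave 16.3 ± 0.901 desert peaks and 60.6 ± 2.07 intergenic peaks (SD, n = 2). The same measure gave 64.3 ± 4.39 intragenic and 153 ± 2.97 promoter-proximal peaks.

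Density fell with distance from the nearest start site without a step at 100 kb. The replicated list had 66.9 peaks per Mb at 50 to 100 kb, 48.2 at 100 to 150 kb, 28.0 at 200 to 300 kb, 8.67 at 500 to 1000 kb and 5.91 beyond 1000 kb. Replicate 1 fell from 67.3 peaks per Mb at 100 to 150 kb to 7.63 beyond 1000 kb, and replicate 2 from 68.3 to 9.08. Just outside the rule, at 90 to 100 kb, the list held 1736 peaks at 58.1 per Mb with a median width of 658.5 bp, and just inside, at 100 to 110 kb, 1446 peaks at 52.4 per Mb with a median width of 619 bp. The median member lay 190137 bp from its nearest protein-coding start site. There were 1905 members beyond 500 kb and 493 beyond 1 Mb, and the most remote lay 2661966 bp away.

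**Figure D1:**
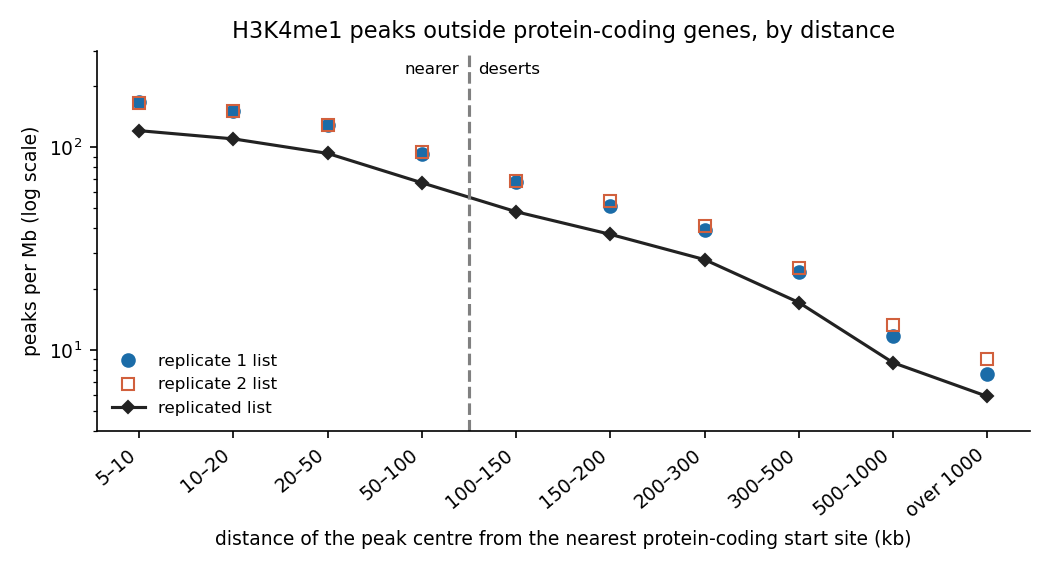
Peaks per Mb (log scale) outside protein-coding genes, by the distance of the peak centre from the nearest protein-coding start site in kb, with circles and squares for the lists of replicates 1 and 2, diamonds for the replicated list, and the dashed line at 100 kb. The replicated list falls from 121 peaks per Mb at 5 to 10 kb to 5.91 beyond 1000 kb, and in each desert bin the replicates lie close to each other.

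Desert peaks were narrower than those of the other classes. Their median width was 603 bp in the replicated list, against 662 bp in the intergenic class, 689 bp in the intragenic and 794 bp in the promoter-proximal class. Members ranged from 170 to 11909 bp, and 1211 of them, or 6.96%, were wider than 2 kb, against 9.96% of intergenic peaks. The replicates' own lists, whose peaks are narrower throughout, gave desert medians of 348 and 342 bp (345 ± 4.24, SD, n = 2) and intergenic medians of 398 and 390 bp (394 ± 5.66). Neither desert value reached the lower intergenic value. Within deserts the median width fell with distance, from 646 bp at 100 to 150 kb to 505 bp beyond 1000 kb. The authors' signal value per peak had a median of 3.89 in deserts and 4.26 in the intergenic class of the same list. Of the members, 896, or 5.15%, were in the top decile of signal of the list.

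Replicate support was close to that of the other peaks. Of the members, 15715, or 90.4%, were overlapped by at least 1 bp by a peak of both replicates, against a background of 91.5% of all 222570 autosomal peaks of the list. Replicate 1 overlapped 94.1% of members and replicate 2 overlapped 96.1%. There were 653 members seen only by replicate 1, 1001 only by replicate 2 and 23 by neither. The authors derived the replicated list from the replicate lists, per its read-me, so these shares describe the list rather than an independent check. The replicates' own desert peaks were overlapped by the other replicate in 78.6% and 75.5% of cases, against 80.9% and 82.1% in the intergenic class. The desert value was the lower in both directions.

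Support rose with width in every class. Of members of up to 250 bp, 66.9% were overlapped by both replicates, of those of 250 to 500 bp 81.4%, and of those of 500 to 1000 bp 95.9%. All 1211 members wider than 2 kb were overlapped by both. Intergenic peaks of the same widths gave 68.8%, 82.3% and 96.4%, slightly above deserts in each of these bins, while intragenic peaks gave 66.3%, 78.8% and 94.1%, below deserts in each.

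**Figure D2:**
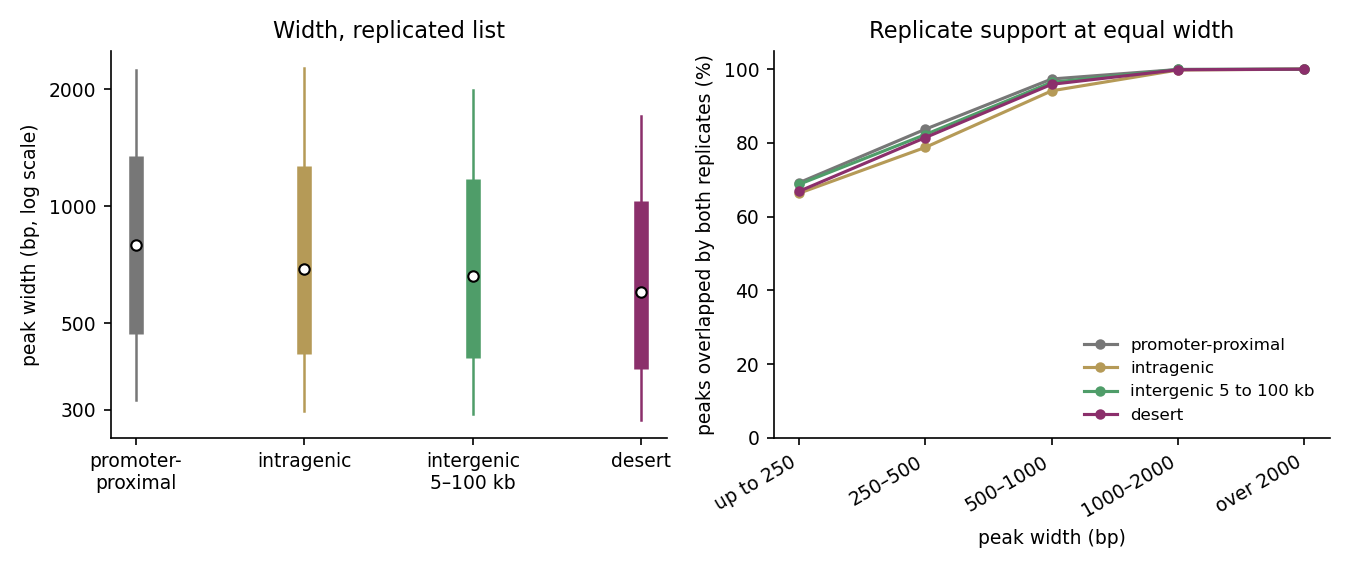
Left, widths in bp (log scale) of peaks of the replicated list by class, with circles for medians, thick bars for the 25th to 75th and thin lines for the 10th to 90th percentile; right, the percent of peaks overlapped by both replicates in 5 width bins, 1 line per class. Desert peaks have the lowest median, 603 bp, and their support runs from 66.9% in the narrowest bin to 100% in the widest, close to the other lines.

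Most desert peaks had a near neighbour. With gaps of up to 10 kb joined, 14318 members, or 82.3%, fell into 3197 clusters and 3074 stood alone. Over all autosomal peaks, 95.1% had a neighbour of any class within 10 kb, and counted the same way 14419 members, or 82.9%, had one, so near neighbours were less common in deserts, where peaks are sparser. The same joining of the replicates' own desert peaks put 87.9% and 88.5% of them in clusters. The median gap between neighbouring members was 3263 bp, and 37.1% of such gaps were under 1 kb. Whether members that close are parts of 1 broader marked stretch was not tested. The median cluster held 3 members over 6149 bp. There were 271 clusters of 10 or more members, which held 4462 members, or 25.7%, and 48 clusters of 20 or more. Clustered members had a median width of 626.5 bp and members that stood alone 516 bp. Both replicates overlapped 91.2% of the clustered members and 86.3% of those alone.

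The largest cluster, at chr13:97403351-97620169, held 68 members over 216819 bp in the desert between Enc1, which encodes an actin-binding kelch protein of the nervous system, and Arhgef28. Peaks of replicates 1 and 2 covered 48.96% and 49.98% of its span, and 66 of its members were overlapped by both. It takes in the start of Lncenc1, a long non-coding RNA known from embryonic stem cells. The next by number were 59 members over 134586 bp between Septin9, a cytoskeletal septin, and Tnrc6c, a partner of Argonaute proteins in RNA silencing, and 58 over 140578 bp between Ubl3 and Katnal1, a katanin subunit that severs microtubules. A cluster of 56 members over 117662 bp next to Myc, the growth-promoting transcription factor, lay wholly inside the record of the long non-coding RNA Pvt1. The replicates covered 59.1% and 63.7% of its span. A further 48 members over 113069 bp lay between Spring1 and Med13l, a subunit of the Mediator kinase module. By span, 42 members over 130914 bp next to Klf3, a KLF-family repressor, and 38 over 129044 bp next to Mycn, a relative of Myc, completed the largest 5. All 38 of the Mycn cluster were overlapped by both replicates.

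**Figure D3:**
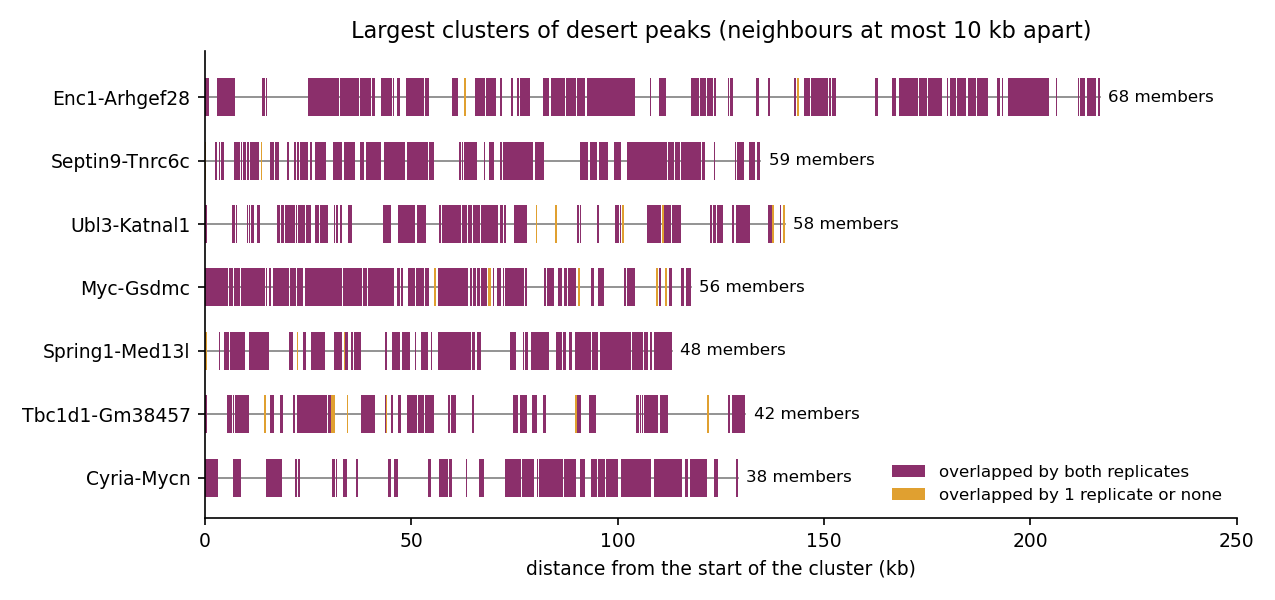
The 7 largest clusters of desert peaks by number or span, each drawn by distance in kb from its own start, with a block for each member coloured by whether both replicates overlapped it. The Enc1-Arhgef28 cluster runs over 216819 bp with 66 of 68 members overlapped by both, and the Myc-Gsdmc cluster is filled to 69.02% of its length by peaks of the replicated list.

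Members were spread unevenly over deserts. No peak of the replicated list lay in 441 of the 1858 deserts, 23 of them of at least 500 kb. These 441 were mostly short: they made up 49.1 of 743.6 Mb, and 238 of them were under 50 kb. At the other end, 455 deserts with 69.3 Mb, or 9.32% of desert sequence, were enough to hold 50% of the members when deserts were taken in order of density. Among the 438 deserts of at least 500 kb the median was 9.19 peaks per Mb and the 90th percentile 43.1. Longer deserts were sparser: stretches of 200 to 500 kb held 39.9 peaks per Mb, those of 500 to 1000 kb 23.2, and those over 2 Mb 7.09, with 55.5 and 57.3, 32.6 and 34.4, and 9.44 and 10.7 in the replicates' own lists. By chromosome, density ran from 16.4 peaks per Mb of desert on chromosome 3 to 37.7 on chromosome 13, where the replicates gave 53.1 and 54.3.

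The densest desert of at least 500 kb was Enc1-Arhgef28 at chr13:97341106-97898593, with 133 members in 0.557 Mb, or 239 per Mb. Replicate 1 listed 366 peaks per Mb there and replicate 2 listed 362 (364 ± 2.54, SD, n = 2). Peaks of the replicated list covered 31.2% of this desert, which is above the 28.4% they covered of promoter-proximal sequence. The Mn1-Cryba4 desert, at chr5:111517301-112154562 between a transcriptional coregulator and a lens crystallin, held 131 members at 206 per Mb (295 and 282 in the replicates, 289 ± 8.88). The third, 1810013L24Rik-Grin2a at chr16:8930101-9567900, borders the gene of an NMDA receptor subunit and held 110 members at 172 per Mb (254 and 235, 245 ± 13.3).

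Several of the other deserts among the densest 10 flank genes of transcription or chromatin regulators. Rragc-Pou3f1, next to the POU factor OCT6, held 146 peaks per Mb, with 199.9 and 220.3 in the replicates. Cd83-Jarid2, next to an accessory subunit of Polycomb repressive complex PRC2, held 142, and both replicates gave 197. Prl5a1-Sox4, between a prolactin-family gene and a SOX factor, held 129, with 188 and 183. Med13l-Tbx3, next to a T-box factor that takes part in stem cell self-renewal, held 111, with 166 and 157. Foxo1-Cog6, next to a forkhead factor, held 107, with 155 and 140. The remaining places went to Nphp4-Ajap1, between a ciliary protein gene and a junction protein gene, with 132 (178 and 209.9), and Matn1-Ptpru, between a cartilage matrix gene and a receptor phosphatase gene, with 111 (167 and 163). Sox2-Atp11b, the desert beside the core pluripotency factor SOX2, came 11th with 98.4 (142 and 136).

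Both replicates' own lists placed the same 10 deserts in their 10 densest. The 10 held 968 members, or 5.57%, in 6.57 Mb, or 0.884% of desert sequence. The 11 densest were at or above the mean density of the intergenic class in the replicated list, and 11 and 12 deserts were so in the replicates. Over the 438 deserts, the densities of the 2 replicates had a Pearson correlation of 0.991 and a Spearman correlation of 0.974. This is a description across deserts, which share libraries and peak calling.

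**Figure D4:**
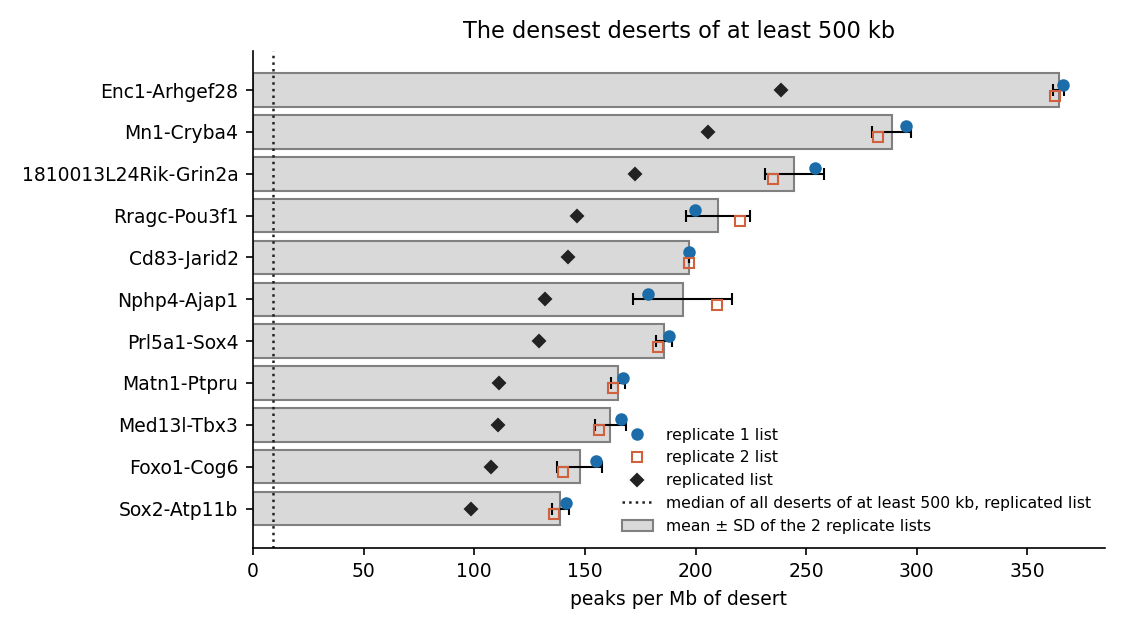
Peaks per Mb in the 11 densest deserts of at least 500 kb, named by their flanking genes, with bars for the mean and whiskers for the SD of the 2 replicate lists, circles and squares for each replicate, and diamonds for the replicated list. Each named desert stands well to the right of the dotted line, the median of 9.19 over all 438 deserts, and in each the replicate lists lie above the replicated list.

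Of the 5 longest deserts, 4 were below the median density of 9.19 peaks per Mb and Celf4-Pik3c3 was above it. The longest of all, Pcdh20-Pcdh9 at chr14:88571397-93013699 between 2 protocadherin genes for cell adhesion, held 32 members in 4.44 Mb, or 7.20 per Mb (8.55 and 11.3 in the replicates). The others of the 5 longest were Celf4-Pik3c3 with 12.3 per Mb, Olfm4-Pcdh17 with 5.89, Cntnap5b-Cdh20 with 6.94 and Lrrc4c-Iftap with 4.37. In 6 deserts of at least 1 Mb there was no peak of the replicated list, and these tied as the sparsest. The 5 longest of them were Epha6-Nsun3, next to an ephrin receptor gene, Slitrk1-Slitrk6, between 2 genes for synaptic adhesion proteins, Adgrl3-Tecrl, next to a latrophilin gene, Nectin3-Gm52257 and Gnpda2-Gabrg1, next to a GABA receptor gene. The replicates' own lists held 0 and 2, 1 and 0, 2 and 4, 1 and 1, and 0 and 0 peaks in them, in this order. The other was Itga1-Isl1, next to a LIM-homeodomain factor gene, with 2 and 3. On mm9, 79.1% of sampled 32-base words in Epha6-Nsun3 and 82.4% in Slitrk1-Slitrk6 were unique, against a median of 82.3% over 451 mm9 deserts of at least 500 kb, and the mm9 series list held 0 peaks in both. Gnpda2-Gabrg1 had fewer unique words, 74.7%, close to the 10th percentile of these deserts at 74.6%, and held 1 peak of the mm9 series list and 1 in each replicate's mm9 list.

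Grouped by their flanking genes, deserts beside pluripotency genes had the highest median density. There were 9 of them at a median of 56.2 peaks per Mb (72.1 and 80.7 in the replicates), against 9.19 (12.5 and 14.0) over all 438. Of the 9, 7 were in the densest quartile of deserts and 0 in the sparsest. They flank Pou3f1, Jarid2, Tbx3, Sox2, Sall1, Myc on both sides, Nr5a2, an orphan nuclear receptor, and Klf4, a reprogramming factor, where the density was 21.8. The gene lists were drawn up with results of these data known, so the order of the lists is a description. The lists also share deserts and are not independent. The deserts of Pou3f1, Tbx3, Sox2, Sall1, Myc and Klf4 count among developmental transcription factors as well. So do Tshz3-Zfp536 of the Zfp genes and Meis1-Spred2 of the signalling genes.

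Deserts beside developmental transcription factors had a median of 20.7 per Mb (28.4 and 31.0 in the replicates) over 52 deserts, 25 of them in the densest quartile and 5 in the sparsest. Their densest were Rragc-Pou3f1, Prl5a1-Sox4, Med13l-Tbx3 and Foxo1-Cog6, and the range reached down to 0. The 14 deserts beside Zfp genes, which encode zinc-finger proteins, had a median of 28.5 (40.3 and 41.9). Their densest were Tshz3-Zfp536 with 55.8, Thap1-Zfp703 with 51.7, Hrh4-Zfp521 with 44.8 and Csnk1g3-Zfp608 with 37.8. Signalling genes were close to all deserts, with 9.51 (13.1 and 13.9) over 22. Their highest was Meis1-Spred2 with 41.1, followed by Fgf9-1700129C05Rik with 33.2, Wac-Fzd8 with 32.3 and Ddhd1-Bmp4 with 26.3.

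Classes of adhesion, channel and receptor genes had lower medians. The 26 deserts beside cadherins and protocadherins had a median of 5.34 (7.60 and 8.43), with Cdh26-4930591A17Rik standing out at 85.4. The list of other neuronal adhesion genes was set by gene symbol, like the rest, and not by where each gene is expressed. Its 42 deserts had a median of 6.67 (8.72 and 10.3), and the highest was Ctnna3-Reep3 with 31.6. The 28 beside ion channel and neurotransmitter receptor genes had 5.03 (7.74 and 8.06), and 1810013L24Rik-Grin2a, at 172, lay far above the next, Rdh14-Kcns3 with 23.2. Sensory receptor genes flanked no desert of at least 500 kb. These classes differ in desert length, with a median of 1.99 Mb beside cadherins and 0.861 Mb beside developmental factors. Among deserts of 500 kb to 1 Mb alone, a restriction added after the data were seen, the medians were 4.35 for 8 cadherin deserts, 10.3 for 14 channel deserts, 15.3 for 9 of other adhesion genes, 14.9 for 13 of signalling genes, 22.99 for 33 of developmental factors, 33.1 for 11 of Zfp genes and 111 for 5 of pluripotency genes, beside 14.0 for all 231. In this length range the other adhesion genes were no longer below the median of all deserts.

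**Figure D5:**
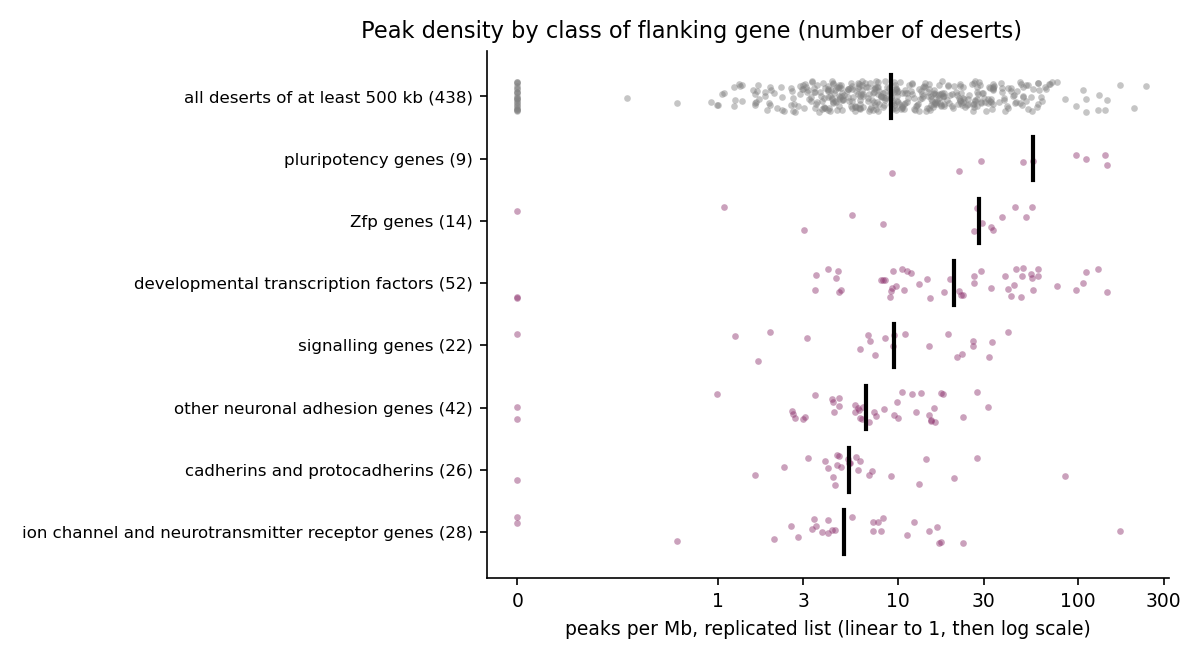
Peak density of the replicated list in deserts of at least 500 kb (peaks per Mb, linear to 1 and log beyond), 1 point per desert, grouped by the class of a flanking gene with the number of deserts in brackets and a bar at each median. The medians run from 56.2 beside pluripotency genes to 5.03 beside channel and receptor genes, with 9.19 for all 438. Every class but the pluripotency genes reaches down to 0, and a desert of more than 1 class is drawn in each.

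Deserts on the 2 sides of 1 gene could differ several fold. These genes were chosen after their values were seen. On the side of Myc that holds Pvt1, Myc-Gsdmc had 49.9 peaks per Mb (72.1 and 69.6 in the replicates), and on the other side A1bg-Myc had 9.26 (11.6 and 12.7). Beside Sox11, a SOX factor of neural development, Cmpk2-Sox11 had 54.9 (71.3 and 81.7) and Sox11-Dcdc2c had 9.04 (11.1 and 13.1). Both replicates of the dense side lay above both of the sparse side in each case. The replicated list, whose values were seen in choosing these genes, derives from the replicate lists, so this is no separate check. Beside Pcdh10 and Pcdh9 the sides were alike, at 4.37 and 4.60, and at 7.20 and 6.15.

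The widest members were single peaks of about 10 kb. The widest, 11909 bp, lay between Tpm1, a tropomyosin gene, and Tln2, a talin gene, at chr9:67204977-67216885, and peaks of replicates 1 and 2 covered 94.1% and 98.9% of it. Vrk1-Gm46320 had 11127 bp, Tfap2c-Bmp7, between an AP-2 factor and a bone morphogenetic protein, 9836 bp, Septin9-Tnrc6c 9786 bp and Nrf1-Ube2h 9508 bp. The lowest share of any of these 5 covered by a replicate was 93.2%, in Vrk1-Gm46320 by replicate 2. The highest signal of a member, 16.4, was in Septin9-Tnrc6c, above 99.995% of the list.

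Deserts have no protein-coding genes by the rule but do hold non-coding ones. Centres of 3632 members, or 20.9%, lay in lncRNA records of RefSeq, which span 10.9% of desert sequence. Density was 44.9 peaks per Mb inside these records and 20.8 outside. The share of desert peaks in such records was 21.0% in replicate 1 and 20.4% in replicate 2. The records with the most members were 2610307P16Rik, with 69 in the Prl5a1-Sox4 desert, Pvt1 with 62, 5730522E02Rik with 48 between Bcl11a and Fancl, and Gm30382 with 43 between Adgrl2 and Adgrl4. Peaks of the replicates covered 52.7% and 54.9% of Pvt1.

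Starts of lncRNAs were also places where desert peaks were frequent. Of 2112 lncRNA genes that start in a desert, 619, or 29.3%, had a peak of the replicated list within 2 kb of a start, and the replicates' own lists gave 31.3% and 31.2%. Of desert positions taken every 1 kb, 7.47% had such a peak. In the 10 densest deserts, 32 of 62 lncRNA genes, or 51.6%, had a peak within 2 kb, but so did 44.5% of all positions there, so the share at lncRNA starts was close to that of their surroundings. Promoter sequences of 3 of them, each under a member, are shown to compare their CpG content, with CpG in capitals, from 250 bases before to 50 after the start (RefSeq, GRCm38.p6). They are Lncenc1 at chr13:97434720-97435019 on the plus strand, C130026L21Rik at chr5:111581311-111581610 on the plus strand in Mn1-Cryba4, and 1700057H15Rik at chr4:124485910-124486209 on the minus strand in Rragc-Pou3f1.
Lncenc1: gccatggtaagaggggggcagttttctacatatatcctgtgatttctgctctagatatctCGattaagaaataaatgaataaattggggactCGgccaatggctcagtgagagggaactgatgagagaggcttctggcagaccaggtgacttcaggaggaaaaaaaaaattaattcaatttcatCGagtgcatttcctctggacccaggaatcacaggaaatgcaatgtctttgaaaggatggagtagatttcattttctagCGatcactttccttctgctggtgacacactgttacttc
C130026L21Rik: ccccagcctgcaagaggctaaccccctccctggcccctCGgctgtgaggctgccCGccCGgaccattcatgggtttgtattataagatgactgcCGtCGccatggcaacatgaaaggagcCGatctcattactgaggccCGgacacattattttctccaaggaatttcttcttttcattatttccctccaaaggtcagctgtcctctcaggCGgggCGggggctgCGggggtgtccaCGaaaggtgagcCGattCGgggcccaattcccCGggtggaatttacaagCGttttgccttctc
1700057H15Rik: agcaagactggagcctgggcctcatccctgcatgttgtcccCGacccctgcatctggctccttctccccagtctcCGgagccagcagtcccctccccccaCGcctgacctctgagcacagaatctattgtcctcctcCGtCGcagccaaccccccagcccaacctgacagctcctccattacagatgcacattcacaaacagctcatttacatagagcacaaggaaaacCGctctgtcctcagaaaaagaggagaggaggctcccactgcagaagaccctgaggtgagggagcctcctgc

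Lncenc1 has 4 CpG and a GC content of 42.3%, and its member is 7631 bp wide, the widest of its desert. C130026L21Rik has 15 CpG and 56.7% under a member of 2293 bp, and 1700057H15Rik has 6 CpG and 58.7% under a member of 2660 bp. Over 349 desert lncRNA starts with a member over the start, the median was 5 CpG and 50.7% GC, and over 2164 without, 3 CpG and 44.3%. None of the 3 printed promoters holds any of the 6 words.

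MicroRNA genes in deserts included some under the strongest members. Of 137 miRNA records in deserts, 23 overlapped a member and 61 had a peak of the replicated list within 5 kb, against 59 and 63 in the replicates' own lists. Of desert positions taken every 1 kb, 13.1% had such a peak within 5 kb. Peaks of the replicated list covered 1.99% of desert bases, and a share of overlap for stretches of miRNA length was not computed. Neighbouring miRNAs share windows: of the 61, 29 belong to the imprinted Rtl1-Dio3 cluster on chromosome 12, where 39 records lie, and 32 to the other 98 records. Of the 23 records that overlapped a member, 7 lie in the Rtl1-Dio3 cluster, and some of the others share a member, so the 23 are not separate cases. The Mir182, Mir96 and Mir183 genes, a cluster known from sensory cells, lie in the Nrf1-Ube2h desert under a member of 8010 bp, among the 5 with the highest signal. Peaks covered 95.4% of the window of 5 kb on each side of Mir182 in both replicates. Mir193a and Mir193b, on chromosomes 11 and 16, each overlapped a member too. Their mature sequences (RefSeq, GRCm38.p6) are shown with the seed, bases 2 to 8, in capitals, since the seed decides which messages a miRNA can pair with.
miR-182-5p: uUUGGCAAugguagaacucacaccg
miR-96-5p: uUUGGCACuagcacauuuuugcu
miR-183-5p: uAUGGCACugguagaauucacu
miR-193a-3p: aACUGGCCuacaaagucccagu
miR-193b-3p: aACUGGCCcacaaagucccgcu

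The first 3 carry seeds that are close but not the same. Those of miR-182-5p and miR-96-5p differ only in the last base, and those of miR-96-5p and miR-183-5p only in the first. By contrast, miR-193a-3p and miR-193b-3p share the seed ACUGGCC and come from different deserts, Rab11fip4-Utp6 and Mrtfb-Parn. Around Mir193a the replicates covered 44.5% and 45.4% of the window and around Mir193b 44.99% and 38.28%. Mir205, in Camk1g-Plxna2, had 90.8% and 79.0%.

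Markers of the cell type named in the labels were also looked at. Of 12 embryonic stem cell markers, 11 had a peak of the replicated list within 2 kb of the start, Tdgf1 being the exception, and their median coverage over 20 kb on each side was 51.5% and 46.8% in the replicates. Of 9 markers of fibroblasts, which can serve as feeder cells, 5 had such a peak, with a median coverage of 4.34% and 4.85%. The share of all protein-coding genes with such a peak, and their coverage, are not given here, so these counts are no check of the cell type. Pdgfrb, at 41.6% and 37.9%, Col1a1, at 34.5% and 26.0%, and Thy1, at 31.7% and 29.9%, were covered about as much as the stem cell marker Klf4, at 35.8% and 31.5%. Col3a1, Dcn and Lum were at 0 in both replicates, and the lowest stem cell marker, Esrrb, was at 7.98% and 8.18%, so the lists overlapped.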

How the data were processed

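H3K4me1 ChIP-seq peak lists of 2 biological replicates of E14TG2a.4 cells were used as the authors deposited them. On mm10 there were 4: those of replicates 1 and 2, a pooled list, and a replicated list that the read-mes derive from the other 3. On mm9 each replicate and the series had its own, in steps of 200 bp. Every mm10 peak carries the authors' signal value, −log10 p, −log10 q and score, and every deposited mm9 peak a signal with its p-value and q-value. Signal was used only to rank peaks within a list and q only as a filter. An aligner is not given in the sources used here, nor is a peak caller. Without read counts the depth stays unknown, and no counting interval was computed.

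Genes on mm10 came from a RefSeq table of GRCm38.p6 without strands. Strands of 16457 of 20560 autosomal protein-coding genes came from RefSeq promoter entries, of 3498 from GENCODE vM1 by symbol and of 360 by synonym. For the other 245, both ends counted as start sites. A further 105 records that start within the first 3 Mb, where no chromosome has sequence, were left out. Overlap was counted from 1 bp. Named by a fixed rule were the flanks of the 10 densest deserts of at least 500 kb, the 5 with most peaks, the 5 longest, the 5 sparsest of at least 1 Mb, the 5 largest clusters, the 5 widest members, and up to 4 of each flanking list; lncRNAs, miRNAs, genes with a desert on either side and printed sequences were chosen after their values were seen. The members, lists and settings were chosen with earlier results of these data known. The interval functions were checked on simulated data against direct counting. Alternatives were the pooled, single-replicate and mm9 lists, a −log10 q of at least 2, other distances, gaps, overlaps, rankings and minimum lengths. The share of soft-masked bases was not computed, since the mm9 genome at hand is not masked, and unique 32-base words were counted in its place. Scripts ran under Python 3.11.15, numpy 2.4.6, pandas 2.3.3, numba 0.67.0 and matplotlib 3.10.9.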

Additional observations from a re-analysis of the deposited data

How the results depend on the processing

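The number of desert peaks was 17392 and stayed within 1.5 times of that with the pooled list, either replicate's own list (24200 and 25326), a −log10 q of at least 2, the mm9 list, or no start site for genes of unknown strand. It was 29876 with a distance of over 50 kb and 8218 with over 200 kb. Density, 23.4 per Mb in the replicated list, was 34.2 with the pooled list, 32.5 to 34.1 with 1 replicate left out, 16.1 on mm9, 32.1 beyond 50 kb and 15.4 beyond 200 kb. The share in clusters, 82.3%, was 86.6% with the pooled list, 87.9% to 88.5% with 1 replicate left out, 65.1% on mm9, 85.6% beyond 50 kb, 77.4% beyond 200 kb, 75.6% with gaps of up to 5 kb, 87.8% with gaps of up to 20 kb and 82.9% with neighbours of any class. The median width, 603 bp, was 411 bp with the pooled list, 342 to 348 bp with 1 replicate left out, 1400 bp on mm9, whose intervals come in steps of 200 bp, 622 bp beyond 50 kb and 568 bp beyond 200 kb. Support by both replicates, 90.4%, was 62.2% with the pooled list, 67.0% on mm9, 62.3% with a reciprocal overlap of 50% and 63.6% where 1 replicate peak had to cover 50% of the member. All 10 densest deserts stayed in the 10 densest with the pooled list and without either replicate, and 9 did when ranked by percent covered, where Sox2-Atp11b entered. With a minimum of 200 kb 2 of the 10 stayed, since shorter deserts such as Bcl2l11-Spdye4c with 260 per Mb then ranked, and with a minimum of 1 Mb 0 did, since all 10 are shorter. On mm9, with its own lists and genes, 5 of the 10 kept their flanking pair and took places 1 to 5. The other 5, among them Enc1-Arhgef28, the densest on mm10, did not keep their pair and had no place under it there. The cause of the other shifts was not tested. The planned share of soft-masked bases was not run. No paired analysis was possible because there is 1 group. Peak lists without counts leave depth unknown, so a desert without a peak may hold signal below the caller's threshold.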

Other observations

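In lists drawn up after the values were seen, with a minimum length of 200 kb in place of 500 kb, the densest deserts included Bcl2l11-Spdye4c with 260 peaks per Mb, Fam43a-Xxylt1 with 254, Foxl1-1700018B08Rik with 248, next to a forkhead factor, and Opa1-Hes1 with 234, next to a Notch target. Bcl2l11-Spdye4c holds the long non-coding RNA Morrbid, whose record carried 31 members (39 and 38 peaks in the replicates). Among deserts of at least 1 Mb the densest was Plekhb2-Hs6st1 with 69.7, followed by Camk1g-Plxna2 with 61.0, Dok5-Cbln4 with 60.2, Sall3-Galr1 with 59.8 and Sall1-Tox3 with 56.2, the last 2 next to spalt-family zinc-finger factors.

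On mm9, sequence uniqueness differed between dense and sparse deserts. The quartile of 451 mm9 deserts of at least 500 kb with the highest density had a median of 88.0% unique 32-base words and the quartile with the lowest 80.0%, and the Spearman correlation over the deserts was 0.400, given as a description. Its part in the order of the deserts was not tested. Of the 10 densest mm10 deserts, 5 keep their flanking pair on mm9 and the 4 densest do not. The 5, Cd83-Jarid2, Nphp4-Ajap1, Matn1-Ptpru, Med13l-Tbx3 and Prl5a1-Sox4, held places 5, 6, 8, 9 and 7 on mm10 and places 1 to 5 on mm9, with 90.01, 85.5, 83.6, 83.2 and 73.9 peaks per Mb.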
